A study of Mus musculus with 9 samples.

Results

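A set of 10 genes of the blood vessels was followed in the mouse forebrain: Cldn5, Pecam1, Flt1, Kdr, Tek, Tie1, Eng, Vwf, Slc2a1 and Acta2. All probe sets of the Affymetrix U74Av2 array whose platform symbol was a member were taken, and this rule uses no measured value. This gave 13 of the 12488 probe sets in the table. Of these, 10 probe sets of 9 genes passed the filter on low values, a mean over the 9 arrays above a log2 value of 3.448, and were tested among 7453 probe sets. The main probe set of Kdr, the weaker of the pair for Tie1 and the weaker of the pair for Vwf lay below the filter.

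The study set clozapine, an atypical antipsychotic, beside haloperidol, a classical dopamine receptor blocker. Male C57BL mice, given as 4 weeks old in the labels, drank water with clozapine (12 mg/kg/day), haloperidol (1.6 mg/kg/day) or no drug for 4 weeks after 2 weeks of acclimatisation. Each treatment had 10 of the 30 animals, and total RNA of 3 animals per treatment was hybridised unpooled, 1 array per animal. The labels name no transgene or deletion. The labels disagree on which side of the forebrain was used, so the side is not stated here. The deposited values are on a log2 scale, from the authors' GCRMA run, a method that corrects probe background from probe sequence and normalises the arrays to each other. A difference of 1 on this scale is a doubling. The RNA came from whole forebrain tissue, so fewer vascular cells and less RNA per vascular cell cannot be told apart.

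Endothelial cells line the vessels of the brain and form the blood-brain barrier, which rests on tight junctions, selective transporters and little vesicle traffic. Their growth and quiescence are set by receptor tyrosine kinases for vascular endothelial growth factors and angiopoietins and by transforming growth factor beta co-receptors. Smooth muscle cells and pericytes, together called mural cells, wrap the vessel outside the endothelium and share a basement membrane with it. These cells are a small part of forebrain tissue, and their transcripts are measured against a large background of neuronal and glial RNA.

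The promoters of the member genes were read from RefSeq sequences of GRCm38.p6 as the 250 bases upstream of the annotated start. Of the 10 genes, 8 had an entry, and Pecam1 and Vwf had none. The windows of 3 genes are shown, for the junction gene with the widest difference between groups and for a pair of receptor tyrosine kinase genes with narrower ones. Capitals mark CACCC on either strand, which reads GGGTG on the printed strand when it lies on the other, and which is the core of sequences bound by Krüppel-like factors. The letters to mark were chosen after the counts were seen.
Cldn5, chr16:18776597-18776846, plus strand: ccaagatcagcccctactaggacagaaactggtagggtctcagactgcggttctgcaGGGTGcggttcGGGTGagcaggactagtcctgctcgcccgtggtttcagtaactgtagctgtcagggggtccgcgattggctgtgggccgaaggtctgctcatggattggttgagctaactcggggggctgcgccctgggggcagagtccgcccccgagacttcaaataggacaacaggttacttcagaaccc
Flt1, chr5:147726012-147726261, minus strand: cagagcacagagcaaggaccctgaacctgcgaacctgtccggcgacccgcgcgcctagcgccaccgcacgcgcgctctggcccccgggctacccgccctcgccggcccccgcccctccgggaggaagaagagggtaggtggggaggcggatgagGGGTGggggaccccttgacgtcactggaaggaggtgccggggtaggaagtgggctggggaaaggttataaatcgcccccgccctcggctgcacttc
Tie1, chr4:118489850-118490099, minus strand: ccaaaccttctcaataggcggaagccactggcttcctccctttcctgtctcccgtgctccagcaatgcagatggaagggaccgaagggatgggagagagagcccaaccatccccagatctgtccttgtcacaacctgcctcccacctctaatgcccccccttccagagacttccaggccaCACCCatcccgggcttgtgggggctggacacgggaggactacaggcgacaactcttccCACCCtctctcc
CACCC was in all 8 member windows (100%) and in 52% of 32851 windows of the same length. The member windows had from 51.2% (Tek) to 70.4% (Flt1) G and C letters. The windows compared were not matched for this content, and its part in the CACCC counts was not tested. AGGAAG, a core of sequences bound by ETS factors, was in 3 of 8 (37.5%: Eng, Flt1 and Tie1) against 29.5% of all windows. CGGAAG was in 1 of 8 (12.5%: Tie1) against 13.6%, and ACGTG, found in hypoxia response elements, in 1 of 8 (12.5%: Slc2a1) against 16.6%. TATAA was in 2 of 8 (25%: Eng and Flt1) against 22.8%, and the strict CArG box, bound by serum response factor, was in 0 of 8 against 1.47%. The strict form searched was CCWWWWWWGG, with W for A or T. CArG-like sequences that differ from it by a letter were not counted. Each motif was searched on both strands, TATAA can overlap the CArG box, and the other motifs were counted separately even where their letters overlapped. These matches describe the letters of the windows only, and no binding was measured.

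No vascular gene passed the test in any comparison. With limma and Benjamini-Hochberg adjustment over the 7453 probe sets, 0 of the 10 tested member probe sets had an adjusted p under 0.05 for clozapine against control, haloperidol against control or clozapine against haloperidol, and 0 of all 7453 did (0%). The moderated F test over the 3 groups likewise gave 0 member calls and 0 calls in all. At an unadjusted p under 0.05, the members had 0 of 10 for clozapine against control (0.939% of all tested), 1 of 10 for haloperidol against control (9.12%), 0 of 10 for clozapine against haloperidol (3.64%) and 0 of 10 in the F test (3.37%). The lowest adjusted p among members was 0.53 in limma, for Tie1 under haloperidol. The 3 control arrays serve both drug comparisons, so the values of those comparisons are not independent. The widest difference was that of Cldn5, which averaged 0.79 log2 units below control under clozapine, with an interval that reached 0.0024.

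**Figure D1:**
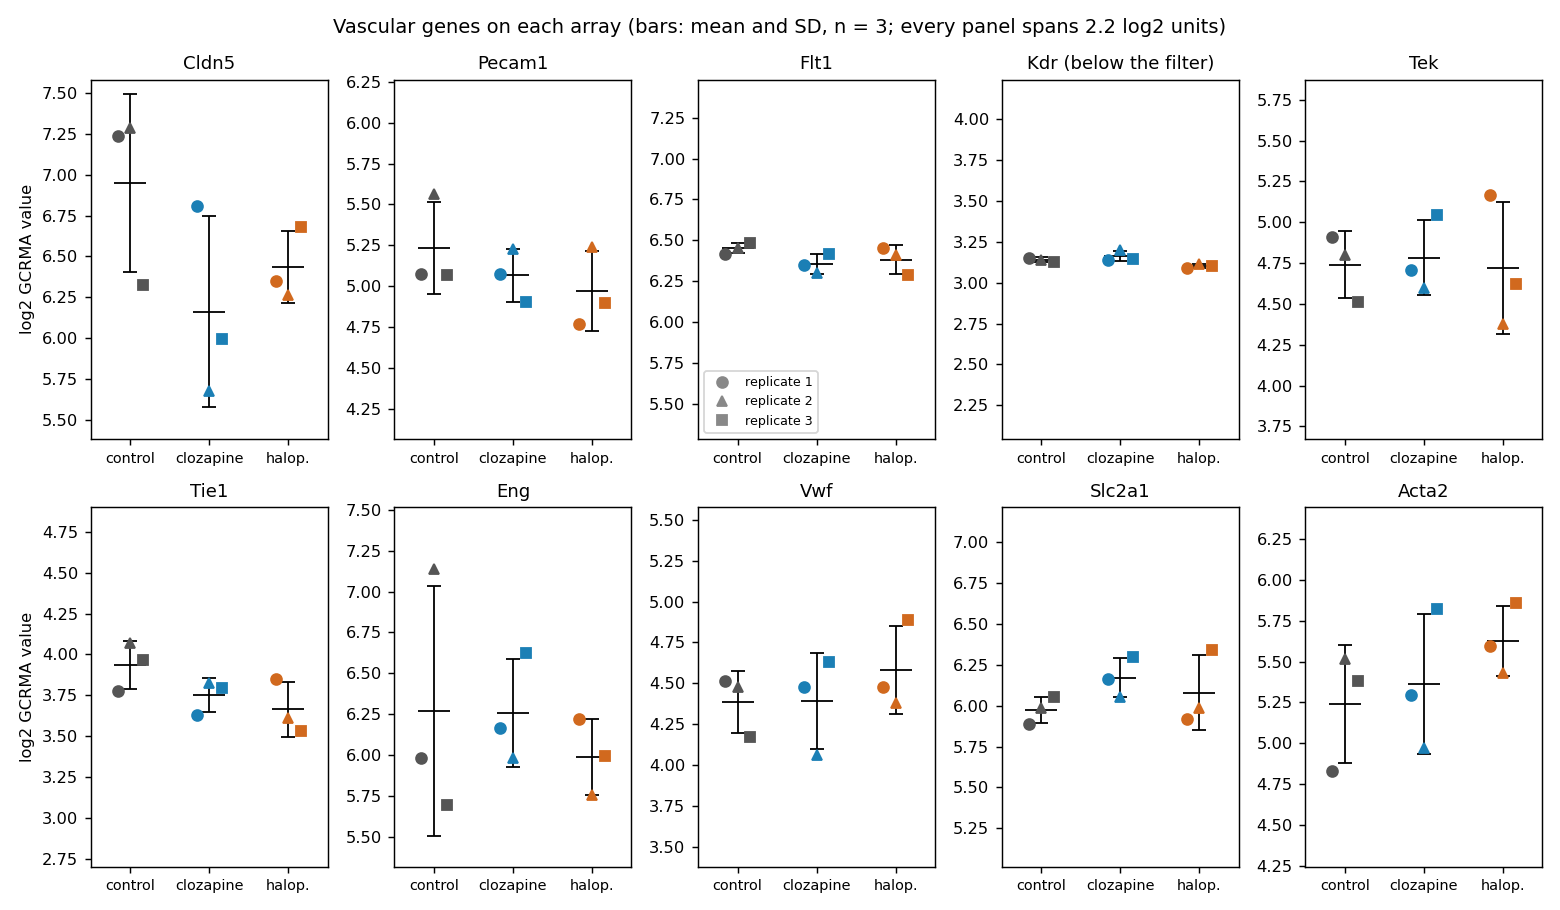
Log2 GCRMA values of the main probe set of each of the 10 vascular genes, by group, with 1 point per array and bars for the mean and SD of 3 arrays. Each panel spans the same number of log2 units: Cldn5 and Eng spread widely within groups, Flt1 lies within a narrow band, and Kdr stays near 3.1 on all arrays.

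Cldn5 encodes claudin-5, the main tight junction protein of brain endothelium. Its log2 values were 7.24, 7.29 and 6.32 in the control arrays, 6.81, 5.67 and 5.997 in the clozapine arrays and 6.35, 6.27 and 6.68 in the haloperidol arrays. The highest values were those of control 1 and control 2, while control 3 lay among the treated arrays and clozapine 1 lay above control 3, so the groups overlapped. The means were 6.95 ± 0.54 (SD, n = 3) in controls, 6.16 ± 0.59 (SD, n = 3) with clozapine and 6.43 ± 0.22 (SD, n = 3) with haloperidol. Clozapine minus control was -0.79 ± 0.34 (SE; 95% interval -1.58 to 0.0024), a control mean 1.73-fold the clozapine mean, with an unadjusted limma p of 0.0505 and an adjusted p of 1. Haloperidol minus control was -0.52 ± 0.34 (SE; interval -1.31 to 0.27; limma adjusted p = 0.656). Clozapine minus haloperidol was -0.27 (interval -1.06 to 0.52). The spread of Cldn5 among arrays of a group was large: its residual SD of 0.478 was at the 91.3rd percentile of the tested probe sets. The clozapine difference lay between -1.11 (without clozapine 1) and -0.55 (without clozapine 2). The haloperidol difference reached -0.83 without control 3, the array with the lowest control value, and was -0.35 without control 2.

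Pecam1, which encodes the adhesion molecule PECAM-1 at endothelial cell contacts, had log2 values of 5.08, 5.56 and 5.07 in controls, 5.07, 5.22 and 4.90 with clozapine and 4.77, 5.24 and 4.90 with haloperidol. Control 2 alone stood above every treated array, and the other controls lay among them. The differences from control were -0.17 (interval -0.58 to 0.24) for clozapine and -0.27 (interval -0.68 to 0.14) for haloperidol, and clozapine minus haloperidol was 0.098. Without control 2 they were -0.0059 and -0.10.

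Of the receptors for vascular endothelial growth factor, Flt1 was the steadiest of the 9 genes tested. Flt1, which encodes VEGF receptor 1, had log2 values of 6.42, 6.45 and 6.48 in controls, 6.35, 6.30 and 6.42 with clozapine and 6.45, 6.41 and 6.28 with haloperidol. The clozapine arrays reached up to the lowest control, and the haloperidol arrays lay on both sides of it. Its residual SD of 0.0639 was at the 6.47th percentile. The differences from control were -0.096 (interval -0.28 to 0.085) for clozapine and -0.069 (interval -0.25 to 0.11) for haloperidol, so both intervals lay within 0.28 log2 units of 0. The other Flt1 probe set read 5.61, 5.59 and 5.63 in controls, 5.56, 5.60 and 5.60 with clozapine and 5.72, 5.58 and 5.60 with haloperidol. Its differences from control were -0.023 and 0.023, and its residual SD of 0.0485 was at the 3.45th percentile. Kdr, which encodes VEGF receptor 2, the main signalling receptor for VEGF-A in endothelium, was below the filter, with log2 values from 3.09 to 3.20 over the 9 arrays. A GCRMA value this low lies near the floor of the method and gives little information on the transcript. Its differences in a fit without the filter were 0.021 for clozapine and -0.039 for haloperidol against control.

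Tek and Tie1 encode the receptor tyrosine kinases of the angiopoietin system, TIE2 being the receptor itself and TIE1 its partner. Tek had log2 values of 4.91, 4.80 and 4.51 in controls, 4.71, 4.60 and 5.04 with clozapine and 5.17, 4.38 and 4.62 with haloperidol. The haloperidol arrays held both the highest and the lowest value of all 9. Its differences from control were 0.042 (interval -0.46 to 0.54) for clozapine and -0.019 (interval -0.52 to 0.48) for haloperidol. Tie1 had log2 values of 3.78, 4.07 and 3.96 in controls, 3.63, 3.82 and 3.80 with clozapine and 3.85, 3.61 and 3.53 with haloperidol. Control 2 and control 3 were above every treated array, whereas control 1 was not. In the main fit Tie1 was the only member with an unadjusted p under 0.05 in any of the comparisons. Its haloperidol minus control difference was -0.27 ± 0.12 (SE; interval -0.55 to -8.5e-05), with a limma p of 0.0499 and an adjusted p of 0.53. It was -0.17 with arrays centred on their medians (limma adjusted p = 0.659) and -0.024 with values under log2 4 set to 4 (limma adjusted p = 0.929), a floor that covers all Tie1 values but that of control 2. Clozapine minus control was -0.19 (interval -0.46 to 0.088). Tie1 was among the 1864 weakest tested probe sets (mean log2 3.45 to 4.61), whose median was -0.13 for haloperidol against control. The part of this shift of weak probe sets in the Tie1 difference was not tested. The other Tie1 probe set was below the filter, at 2.59 to 2.70 on all arrays.

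Eng encodes endoglin, a co-receptor for transforming growth factor beta family ligands on endothelium. Its log2 values were 5.98, 7.14 and 5.69 in controls, 6.16, 5.98 and 6.62 with clozapine and 6.22, 5.75 and 5.99 with haloperidol. Control 2 had the highest value of the 9 arrays and control 3 the lowest. The differences from control were -0.015 (interval -0.84 to 0.81) for clozapine and -0.28 (interval -1.11 to 0.54) for haloperidol. Neither had a stable sign: they were 0.42 and 0.15 without control 2, and -0.30 and -0.57 without control 3. The clozapine difference was also above 0 without clozapine 1 (0.031) or clozapine 2 (0.12). The residual SD of 0.50 was at the 92.4th percentile.

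Vwf, which encodes the clotting factor stored in endothelial granules, read 4.51, 4.48 and 4.17 in controls, 4.48, 4.06 and 4.63 with clozapine and 4.48, 4.38 and 4.89 with haloperidol. The 3 groups overlapped, with haloperidol 3 highest and clozapine 2 lowest. Its differences from control were 0.0031 (interval -0.44 to 0.44) for clozapine and 0.19 (interval -0.25 to 0.63) for haloperidol. The haloperidol difference was 0.041 without haloperidol 3 and 0.30 without haloperidol 2. The other Vwf probe set, below the filter at 2.85 to 3.09, gave -0.093 for haloperidol in a fit without the filter, the opposite sign.

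Slc2a1 encodes GLUT1, the glucose carrier of the blood-brain barrier, which astrocytes also express. Its log2 values were 5.89, 5.98 and 6.05 in controls, 6.17, 6.05 and 6.30 with clozapine and 5.92, 5.98 and 6.34 with haloperidol. All 3 clozapine arrays were above all 3 controls, the only tested member probe set whose arrays did not overlap in a comparison, though the gap was small, from a highest control of 6.051 to a lowest clozapine array of 6.055. Over all tested probe sets, arrays did not overlap in 3.43% for clozapine against control, 21.7% for haloperidol against control and 17.1% for clozapine against haloperidol, with 1, 0 and 0 of 10 member probe sets. Below the filter, the haloperidol arrays of Kdr and of the other probe sets of Tie1 and Vwf were all below the controls. The differences of the means were -0.039, -0.053 and -0.093. Those of Kdr and Vwf were also all below the clozapine arrays. The share of all probe sets below the filter that do not overlap was not counted. For Slc2a1, clozapine minus control was 0.20 ± 0.13 (SE; interval -0.096 to 0.49), with a limma p of 0.159 and an adjusted p of 1. Haloperidol minus control was 0.11 (interval -0.19 to 0.40), and -0.023 without haloperidol 3.

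Acta2, the smooth muscle actin of arterioles, read 4.83, 5.51 and 5.38 in controls, 5.29, 4.97 and 5.82 with clozapine and 5.59, 5.43 and 5.86 with haloperidol. Control 1 had the lowest value, and haloperidol 3 and clozapine 3 the highest values. The differences from control were 0.12 (interval -0.46 to 0.71) for clozapine and 0.39 (interval -0.20 to 0.97; limma adjusted p = 0.652) for haloperidol. It was the member with the greatest mean above control under haloperidol, and the difference was 0.18 without control 1 and 0.52 without control 2.

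**Figure D2:**
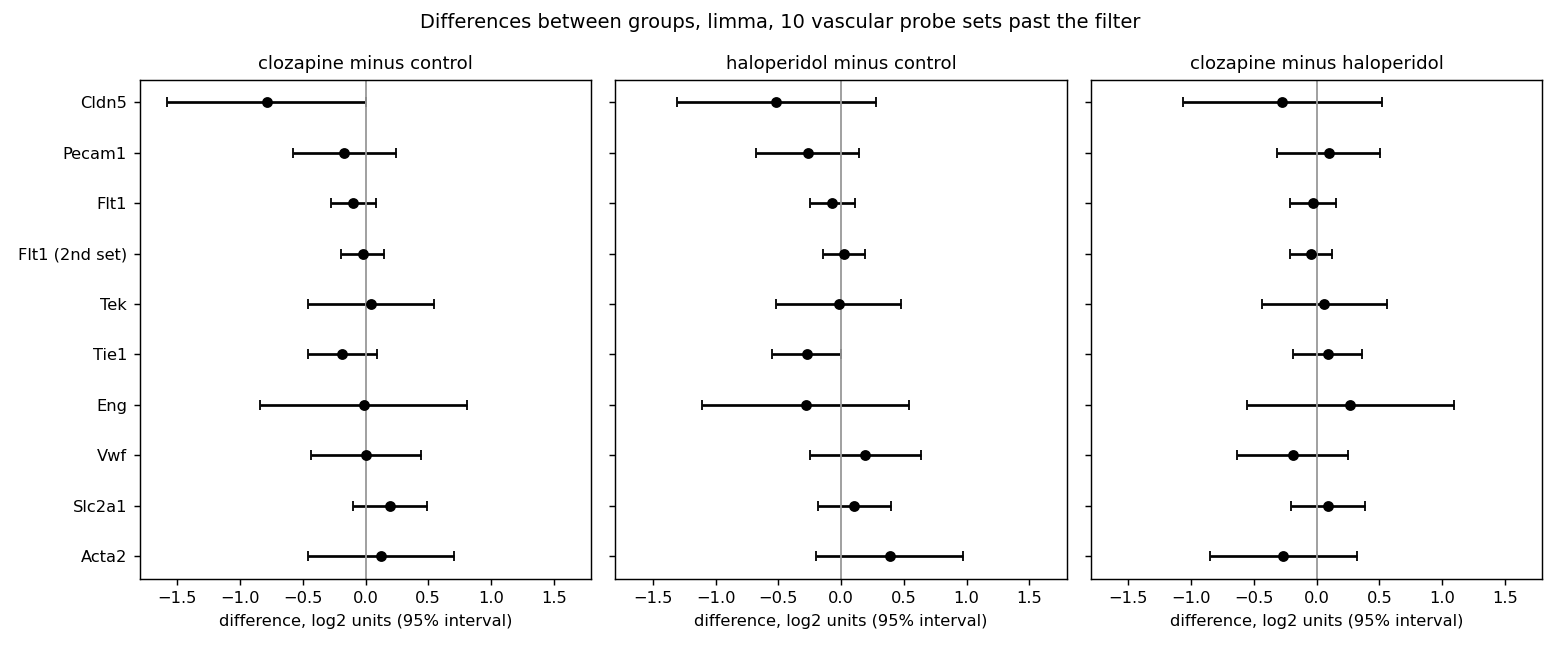
Differences in log2 units with 95% intervals from limma for the 10 member probe sets past the filter, in the 3 comparisons. Of the intervals drawn, only that of Tie1 for haloperidol minus control leaves 0 out, with an upper end of -8.5e-05, and the Flt1 intervals are the narrowest.

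As a group the members did not share a direction. Of the 9 genes tested, 4 lay above and 5 below control under clozapine (49.5% and 50.5% of all tested probe sets), with a median difference of -0.015 beside -0.0013 for all tested probe sets. Under haloperidol 3 lay above and 6 below control (46.4% and 53.6% of all), with a median of -0.069 beside -0.018. For clozapine against haloperidol 5 were above and 4 below (56.4% and 43.6% of all), with a median of 0.061 beside 0.026. Centring each array on its median moved all haloperidol minus control differences by 0.10 log2 units and all clozapine minus haloperidol differences by -0.099. The members then counted 5 above and 4 below control for haloperidol, and 1 above and 8 below for clozapine against haloperidol. Their centred medians were 0.035 beside 0.085 for all tested probe sets, and -0.038 beside -0.073. With quantile normalization 3 were above and 6 below control for haloperidol, with a median of -0.12 beside -0.013. In the main fit, leaving out single arrays moved the member medians across 0. The clozapine median ran from -0.12 without clozapine 3 (1 gene above and 8 below) to 0.12 without clozapine 2 (5 above and 4 below), and was -0.11 without control 1 or control 3, 0.048 without control 2 and -0.041 without clozapine 1. The haloperidol median ran from -0.17 without haloperidol 1 to 0.0096 without control 2, and was -0.13 without control 3 and -0.023 without haloperidol 3. The median of clozapine against haloperidol ran from -0.059 without clozapine 3 to 0.094 without clozapine 1, and was also below 0 without haloperidol 2 (-0.014).

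Single arrays also stood out. Control 2 held the highest value of 4 of the 9 genes (Cldn5, Pecam1, Tie1 and Eng), and 8 of 9 were above their own mean on it, by 0.29 log2 units on average. Clozapine 2 was lowest for Cldn5 and Vwf, and its average deviation over the 9 genes was -0.22. Haloperidol 3 was highest for Vwf, Slc2a1 and Acta2 and lowest for Flt1 and Tie1. The members did not all deviate the same way on an array, and Eng and Cldn5 went opposite ways on clozapine 3 (0.45 and -0.52).

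**Figure D3:**
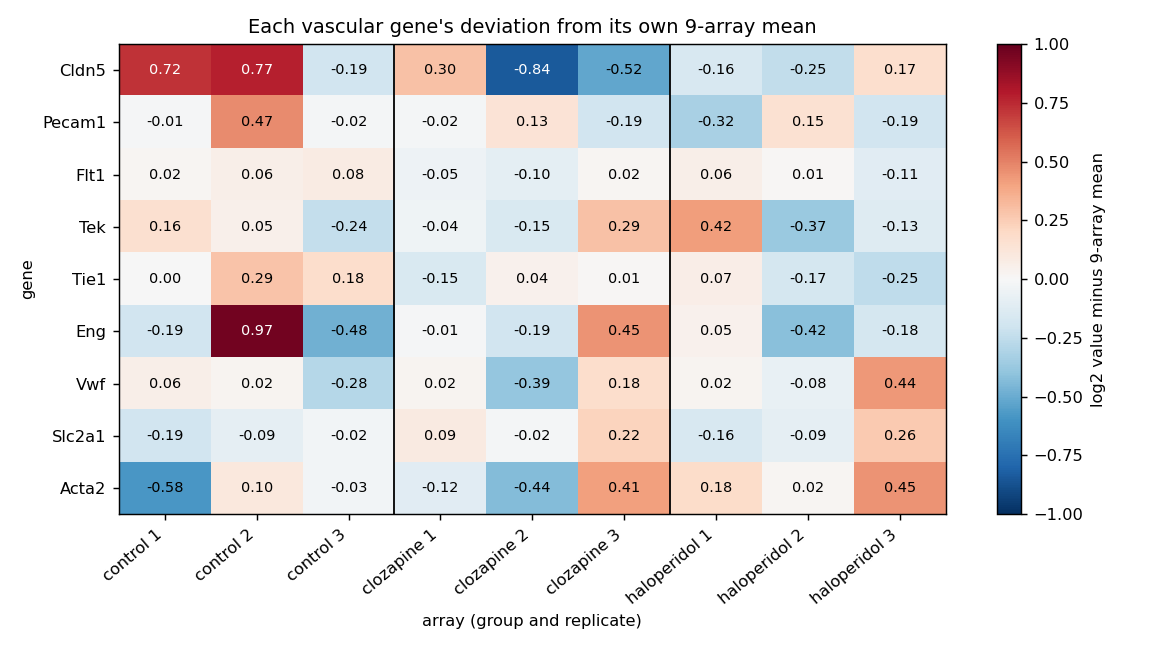
Deviation of each of the 9 tested vascular genes from its own mean over the 9 arrays, in log2 units, with arrays in columns by group and replicate. Control 2 is above the mean for 8 of 9 genes, and the deviations of Flt1 stay within 0.12 of 0.

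Markers of the sampled cells and of neighbouring tissues were read on the same arrays. Of 10 endothelial markers, the members other than Acta2 plus Cdh5, all were on the array and 9 passed the filter, and their mean deviation was -0.031 to 0.32 on control arrays, -0.20 to 0.14 on clozapine arrays and -0.22 to 0.046 on haloperidol arrays. Of 8 mural markers 7 were on the array and 5 passed, with mean deviations of -0.16 to 0.15, -0.086 to -0.0021 and -0.0023 to 0.15, while Tagln and Des lay below the filter. On control 3 the astrocyte markers averaged 0.56 above and the neuronal markers 0.48 below their mean (a deviation of -0.48). Glul (10.31 beside a 9-array mean of 7.80) and Syt1 (8.57 beside 10.44) deviated most in these lists. Aldoc and Aqp4 lay below their own means there, and the other astrocyte markers above. Control 3 also had the widest gap between the 3' and 5' probe sets of the actin and Gapdh controls, a mean of 1.73 against 0.81 to 1.46 on the others. Haloperidol 3 carried pituitary markers, with a mean level of 7.40 over the 7 on the array against 2.16 to 2.33 elsewhere. Gh, Prl, Pomc, Cga and Tshb were highest on it, whereas Fshb (2.63) and Lhb (0.79) were not. Hba-a1 and Hbb-b2, the red cell markers past the filter, deviated by 0.78 on clozapine 1 and -1.18 on haloperidol 1. The part of these differences between arrays in the vascular values was not tested.

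Genes around the members were read in lists of vascular function, in which 0 genes were called in limma in any comparison. Endothelial adhesion, junction and regulator genes had 31 of the 44 on the array past the filter. Under clozapine 13 were above and 18 below control, with a median of -0.016, and under haloperidol 8 were above and 23 below, with a median of -0.11. The genes with the lowest F-test p in this list were Gata2, a transcription factor of endothelial and blood lineages, and Calcrl, a receptor for adrenomedullin and calcitonin gene-related peptide. Gata2 had log2 values of 3.87, 4.05 and 3.93 in controls, 3.81, 4.09 and 3.85 with clozapine and 3.71, 3.75 and 3.47 with haloperidol. All haloperidol arrays were below all controls, and the difference was -0.31 (limma adjusted p = 0.53), or -0.018 with values under log2 4 set to 4. Calcrl had a haloperidol difference of -0.24 (limma adjusted p = 0.53), also with no overlap, and every Calcrl value lay under that floor. Both genes were among the 1864 weakest probe sets. The other Gata2 probe set was below the filter, with group means of 2.18 to 2.24. It gave -0.052 for haloperidol against control in a fit without the filter.

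Barrier transporters and receptors had 12 of 17 genes past the filter. Under clozapine 5 were above and 7 below control, with a median of -0.063, and under haloperidol 3 were above and 9 below, with a median of -0.13. Slc16a1, the monocarboxylate carrier MCT1 that moves lactate and ketone bodies, had log2 values of 4.31, 4.47 and 4.41 in controls, 4.29, 4.36 and 4.22 with clozapine and 4.25, 4.19 and 4.03 with haloperidol. The haloperidol arrays were all below the controls, at -0.24 (limma adjusted p = 0.53), and the clozapine arrays, at -0.11, overlapped them. Slc19a1, the reduced folate carrier, was at -0.18 for haloperidol (limma adjusted p = 0.534) and -0.099 for clozapine. Its other probe set was below the filter, with group means of 1.46 to 1.51. That probe set gave -0.049 for haloperidol and 0.0085 for clozapine in a fit without the filter.

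Growth factor ligands and their partners had 16 of 36 genes past the filter. Under clozapine 8 were above and 8 below control, with a median of -0.00027, and under haloperidol 3 were above and 13 below, with a median of -0.11. All 16 were above in clozapine against haloperidol, with a median of 0.14, whereas 56.4% of all tested probe sets were above, and 10 of 16 were above once arrays were centred on their medians. In the same comparison 11 of 12 barrier genes and 22 of 31 endothelial genes were above, and 4 of 12 and 15 of 31 after centring. Centring also moved the median of all tested probe sets in this comparison, from 0.026 to -0.073. The centred list medians were 0.040 for growth factor genes, -0.011 for barrier genes and -0.010 for endothelial genes, all above that of all tested probe sets. Mural genes (9 of 18 above before centring) and basement membrane genes (12 of 24) had centred medians of -0.098 and -0.083, below it. Over the 1864 weakest tested probe sets the uncentred median of this comparison was 0.12. The part of that shift in the list values was not tested. Vegfb, a ligand of VEGF receptor 1, had log2 values of 8.00, 7.85 and 7.95 in controls, 7.79, 7.76 and 7.69 with clozapine and 7.49, 7.77 and 7.74 with haloperidol. Every treated array was below every control. Its differences were -0.19 ± 0.098 (SE; interval -0.41 to 0.041) for clozapine and -0.27 ± 0.098 (SE; interval -0.49 to -0.039) for haloperidol, with limma adjusted p-values of 1 and 0.53. Because the 3 controls enter both, these differences are not independent of each other. Hgf, hepatocyte growth factor, was at -0.035 for clozapine and -0.28 for haloperidol (limma adjusted p = 0.53; -0.14 with the floor at log2 4), with a mean signal of 4.03 among the 1864 weakest probe sets.

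Mural cell and smooth muscle genes had 18 of 25 past the filter, with 8 above and 10 below control under clozapine (median -0.019) and 9 above and 9 below under haloperidol (median -0.010). Foxc1, a transcription factor of pericytes and meninges, was at -0.084 for clozapine and -0.30 for haloperidol (limma adjusted p = 0.53). Kcnj8, a potassium channel subunit of pericytes, was at -0.010 and -0.17 (limma adjusted p = 0.54; -0.091 for haloperidol with the floor at log2 4).

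Basement membrane and perivascular fibroblast genes had 24 of 31 past the filter, with 10 above and 14 below control under clozapine (median -0.023) and 7 above and 17 below under haloperidol (median -0.054). Nid1, which links laminin to collagen IV in the membrane, had the lowest F-test p of all the lists. Its log2 values were 4.78, 4.95 and 4.85 in controls, 4.72, 4.90 and 4.74 with clozapine and 4.64, 4.56 and 4.33 with haloperidol. The haloperidol arrays did not overlap the other groups, with a difference from control of -0.35 ± 0.11 (SE; interval -0.60 to -0.11; limma adjusted p = 0.53). Col4a2, a chain of vascular collagen IV, had log2 values of 7.06, 7.11 and 6.83 in controls, 6.68, 6.62 and 6.70 with clozapine and 6.92, 6.50 and 6.70 with haloperidol. All clozapine arrays were below all controls, at -0.33 ± 0.12 (SE; interval -0.62 to -0.046; limma adjusted p = 1), and haloperidol, at -0.29 (limma adjusted p = 0.53), overlapped them.

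**Figure D4:**
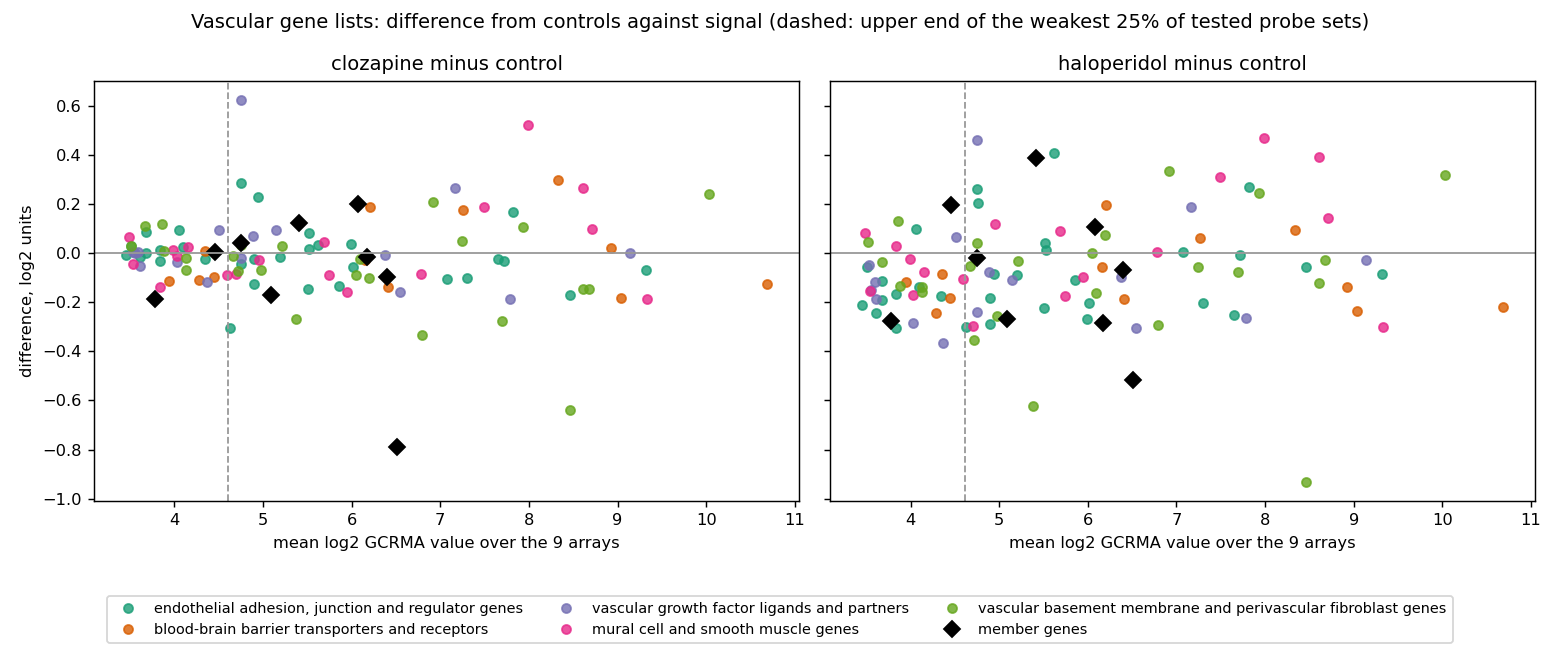
Difference from control in log2 units against the mean log2 value over the 9 arrays, for clozapine and haloperidol, with 1 point per gene of the 5 vascular lists and diamonds for the 9 members. Left of the dashed line at 4.61 most haloperidol differences are below 0, and the lowest diamond in both panels among the members is Cldn5.

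Weak probe sets read lower on the haloperidol arrays. Over the 1864 weakest tested probe sets the median haloperidol difference was -0.13 and the median clozapine difference was -0.011, whereas over the 1863 strongest, from 7.82 up, they were 0.041 and 0.013. Haloperidol 3 had the lowest median deviation among the weakest, -0.15, and clozapine 2 the highest, 0.12. Gata2, Calcrl, Slc16a1, Slc19a1, Hgf and Kcnj8 lay in this range, and Foxc1 and Nid1, with means of 4.70 and 4.72, lay just above it. The list counts for haloperidol against control turned on the scaling. After array centring they were 14 above and 17 below for endothelial genes, 5 and 7 for barrier genes, 7 and 9 for growth factor genes, 12 and 6 for mural genes and 14 and 10 for basement membrane genes. The list medians were then between -0.025 and 0.093, beside 0.085 for all tested probe sets. Without control 2 the clozapine medians were above 0 for endothelial genes (0.0098), growth factor genes (0.018), mural genes (0.0071) and basement membrane genes (0.017), as was the haloperidol median for mural genes (0.0084), and without control 1 the clozapine median for barrier genes was 0.0034. The part of the shift in the list counts was not tested.

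The genes whose deviations from the group means most resembled the mean standardised deviation of the members, over the 9 arrays, were Kdelr1 (Pearson r = 0.97), Commd9 (0.96), Cyp7b1 (0.96), Ddit3 (0.95) and Eif4ebp2 (0.95). The arrays and their normalisation are shared by all these points. Among the members themselves r with that mean ran from 0.038 for Pecam1 to 0.93 for Eng, which it includes.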

How the data were processed

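The deposited table holds log2 probe set values, which the authors made with GCRMA per the submitters' processing notes; its version was not given in the sources used here. Of 12488 probe sets, 66 control probe sets were left out. Of the other 12422, 10833 had 1 platform symbol, and 10817 of those matched RefSeq GRCm38.p6 by Entrez identifier. Probe sets with a 9-array mean above the 40th percentile (log2 3.448) were tested. limma 3.58.1 in R 4.3.3 fitted 1 mean per group over all 9 arrays (6 residual degrees of freedom, prior 2.03), two-sided, with Benjamini-Hochberg adjustment over 7453 probe sets and a threshold of 0.05. The fit was checked on simulated data. The precision is limited by the 3 arrays per group, with a median SE of a difference of 0.15 log2 units, and the smallest two-sided p of an exact permutation test at this size is 0.1. A gene with several probe sets was described by the one with the highest mean.

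The members and lists were chosen with earlier results of these data known. Named genes were all members, the 2 genes per list with the lowest F-test p and the 5 genes of most like pattern.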

Additional observations from a re-analysis of the deposited data

How the results depend on the processing

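No choice made a call: 0 members and 0 probe sets had an adjusted p under 0.05 with limma without the filter, with a filter at the 60th percentile, with a floor at log2 4, with array centring, with quantile normalization, with an intensity trend and robust prior, with array weights, with only the 6 arrays compared, with the replicate number as a block, or without any 1 array. The counts at an unadjusted p under 0.05 did move, from 70, 680 and 271 probe sets for clozapine against control, haloperidol against control and clozapine against haloperidol to 106, 1944 and 2061 without the filter, 36, 182 and 30 at the 60th percentile and 48, 912 and 585 with the trend. The members under 0.05 were 1, 0 and 0 at the 60th percentile, where Cldn5 had a limma p of 0.0458 for clozapine against control. They were 1, 0 and 0 with quantile normalization and 1, 1 and 0 with the trend. The default array weights method stopped without converging, giving control 2 a weight of 13.6. It gave 926, 1891 and 134 probe sets, 5, 4 and 0 of them members, and the lowest adjusted p was 0.0632 in the whole table and 0.0668 among members, both for haloperidol against control. A gene-by-gene weights method was therefore added after seeing this, and gave 331, 1254 and 119 probe sets and 3, 3 and 0 members. With arrays left out in turn, the probe sets ran from 39 to 196, from 161 to 752 and from 37 to 445, and the members from 0 to 1 for both drug comparisons.

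Samples with the same replicate number deviated together in some pairs and opposite ways in others. The correlation was 0.70 for control 1 with clozapine 1, 0.69 for clozapine 2 with haloperidol 2 and 0.37 for control 3 with clozapine 3. In all other pairs it was below 0, from -0.60 to -0.21. With the number as a block the unadjusted counts were 60, 665 and 333 probe sets and 0, 1 and 0 members.

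Of the differences named, 52 values changed sign under an alternative, 19 of them with all arrays kept, all without passing the adjusted threshold. With values under log2 4 set to 4, Gata2 clozapine minus control was 0.011. With arrays centred on their medians, Flt1 haloperidol minus control was 0.035, Tek haloperidol minus control was 0.085, Pecam1 clozapine minus haloperidol was -0.0014, Tek clozapine minus haloperidol was -0.038, Tie1 clozapine minus haloperidol was -0.011, Slc2a1 clozapine minus haloperidol was -0.0078, Slc19a1 clozapine minus haloperidol was -0.014, Vegfb clozapine minus haloperidol was -0.019. With quantile normalization, Vwf clozapine minus control was -0.0079, Kcnj8 clozapine minus control was 0.0014, Tie1 clozapine minus haloperidol was -0.028, Col4a2 clozapine minus haloperidol was 0.0013. With array weights, Vwf clozapine minus control was -0.035, Acta2 clozapine minus control was -0.054. With gene-by-gene array weights, Vwf clozapine minus control was -0.021. From the other probe set, Flt1 haloperidol minus control was 0.023, Vwf haloperidol minus control was -0.093, Vwf clozapine minus haloperidol was 0.100. Leaving out 1 array at a time, clozapine minus control ran from -0.11 to 0.32 for Acta2, from -0.30 to 0.42 for Eng, from -0.12 to 0.018 for Gata2, from -0.080 to 0.021 for Calcrl, from -0.11 to 0.011 for Hgf, from -0.054 to 0.014 for Kcnj8, from -0.087 to 0.13 for Tek, from -0.12 to 0.17 for Vwf. Leaving out 1 array at a time, haloperidol minus control ran from -0.24 to 0.15 for Tek, from -0.57 to 0.15 for Eng, from -0.023 to 0.19 for Slc2a1. Leaving out 1 array at a time, clozapine minus haloperidol ran from -0.076 to 0.0078 for Flt1, from -0.11 to 0.28 for Tek, from -0.0033 to 0.23 for Pecam1, from -0.0098 to 0.13 for Vegfb, from -0.14 to 0.069 for Col4a2. With the floor, 4 differences had both groups at the floor and no value, among them that of Tie1 for clozapine against haloperidol. List medians, leave-outs of arrays for them, Col4a1 and Tjp1 were added after the data were seen. For Kdr, below the filter, the fit without it is the test. The cause of these changes of sign was not tested.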

Other observations

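A further pair of genes, chosen after their values were seen, lay outside the rule for named genes. Col4a1, the partner chain of Col4a2, had log2 values of 7.97, 9.04 and 9.94 in controls, 7.70, 8.60 and 8.73 with clozapine and 8.40, 8.04 and 7.71 with haloperidol. The controls alone spanned nearly the whole range, and the differences were -0.64 (interval -1.76 to 0.49) for clozapine and -0.93 (interval -2.05 to 0.19) for haloperidol. They were -0.16 and -0.45 without control 3, the array with the highest value, and -1.14 and -1.44 without control 1, the lowest control. The clozapine difference was -0.31 without clozapine 1.

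Tjp1, which encodes the junction scaffold ZO-1, had log2 values of 7.72, 7.73 and 7.57 in controls, 7.79, 7.73 and 8.01 with clozapine and 7.98, 7.97 and 7.89 with haloperidol. All haloperidol arrays were above all controls, at 0.27 (interval 0.047 to 0.49; limma adjusted p = 0.53). Its other probe set gave -0.34 for the same comparison, so the probe sets of Tjp1 disagreed in direction. In a fit without the filter both probe sets had a limma adjusted p of 0.307. The other probe set, with group means of 3.97 to 4.31, lay in the range of the 1864 weakest tested probe sets, whose median haloperidol difference was -0.13.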
